A study of Sus scrofa with 13 samples.

Results

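The outflow vein of an arteriovenous fistula is the stretch of vein that takes arterial blood once an artery has been joined to it for haemodialysis access. RNA from 5 such veins of pigs (Sus scrofa) that received only the carrier is described here: PLGA, a biodegradable polymer, together with a hydrogel and no drug. They are the 5 vehicle samples of the series' 13. They were chosen by label, as the 5 data columns named as controls, and not by any measured value. The other 8 samples came from pigs given the same kind of carrier with 1,25-dihydroxyvitamin D3, and their values were not used here. The carrier is thus present in every vein described, and no vein without a fistula or without the carrier was analysed here. Each column name holds an animal code and a sex, so the veins are called P13 (female), P14 (male), P15 (female), P16 (male) and P17 (female). For the pigs' age and strain and the time after surgery, the sources used here give nothing. The labels' treatment protocol speaks of mice and an antibody, which contradicts the pig gene identifiers, and it was not used.

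A vein wall has an intima of endothelial cells, a media of contractile smooth muscle cells and an adventitia of fibroblasts, collagen, small vessels, nerves and fat. Under arterial flow and pressure, veins are known to thicken by laying down matrix and by growth of mesenchymal cells towards the lumen, the neointima. Endothelial cells line the lumen and sense flow, smooth muscle cells set the tone of the wall, and fibroblasts and their relatives make most of the collagen. Roles named below are textbook knowledge, mostly from human and mouse genes. Because the samples are bulk tissue, fewer cells of a type and less RNA per cell cannot be told apart.

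Values are RPKM, reads scaled to gene length and to library total, which allows levels of different genes to be set side by side. The veins had 30261776 to 49818479 reads on the 30477 genes of the table, so counting error is small for all but the lowest genes. The table lists 20288 protein-coding genes, of which 12119 to 12535 lay above 0.5 RPKM in a single vein and 11127 in all 5. Another 2162 were listed at 0 in all 5 veins, and so were all 37 genes of the mitochondrial genome, including its 13 protein-coding genes, so those values cannot be read as absence. Protein-coding genes held 83.4% to 91.7% of reads but 22.9% to 42.9% of summed RPKM. Short small nucleolar RNAs held 40.6% to 61.1% of summed RPKM with 4.30% to 10.7% of reads. Shares below are therefore shares of protein-coding RPKM. Among the 11614 protein-coding genes with a mean of at least 1 RPKM, the median gene deviated from its mean over the veins by -0.31 on the log2 scale in P13 and by -0.014 to 0.11 in the other 4. In P13 the deviation was -0.18 for the shortest genes and -0.41 for the longest, and in P15 it was -0.12 and 0.29, so gene length moved with the vein. Of these genes, 15.2%, 5.69%, 35.9%, 18.2% and 25.0% were highest in P13, P14, P15, P16 and P17. In the same order of veins, 45.3%, 10.3%, 25.4%, 10.6% and 8.46% were lowest. Across these genes, levels correlated from 0.735 (Pearson's r of log2 levels, P13 with P15) to 0.914 (P14 with P16), as a description over genes that are not independent.

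Fibrillar collagen led the protein-coding genes of every vein. COL3A1, the main chain of type III collagen (ENSSSCG00000016034, chromosome 15, 93556912 to 93615815 in the coordinates of the deposited table, on a build that the sources used here do not name), had 19835, 11596, 7583, 5375 and 7058 RPKM in veins P13, P14, P15, P16 and P17. COL1A2, the second chain of type I collagen (chromosome 9, 74173931 to 74210398), had 16831, 8843, 6794, 5655 and 4729 RPKM in the same order. COL1A1, its first chain (chromosome 12, 26379090 to 26397003), had 14178, 5430, 1955, 2128 and 1855 RPKM. All 3 were highest in P13 and second in P14, with the remaining 3 veins below both. As a mean ± SD over the 5 veins the levels were 10289 ± 5804, 8570 ± 4866 and 5109 ± 5286 RPKM (n = 5 each). Together these 3 genes held 24.4% of the protein-coding RPKM in P13, 13.2% in P14, 7.96% in P15, 5.98% in P16 and 6.01% in P17. The spans of COL3A1 and its neighbour COL5A2 overlap at their ends, and COL5A2, with 446 to 1073 RPKM, had 6.67% to 10.2% as many reads as COL3A1.

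**Figure D1:**
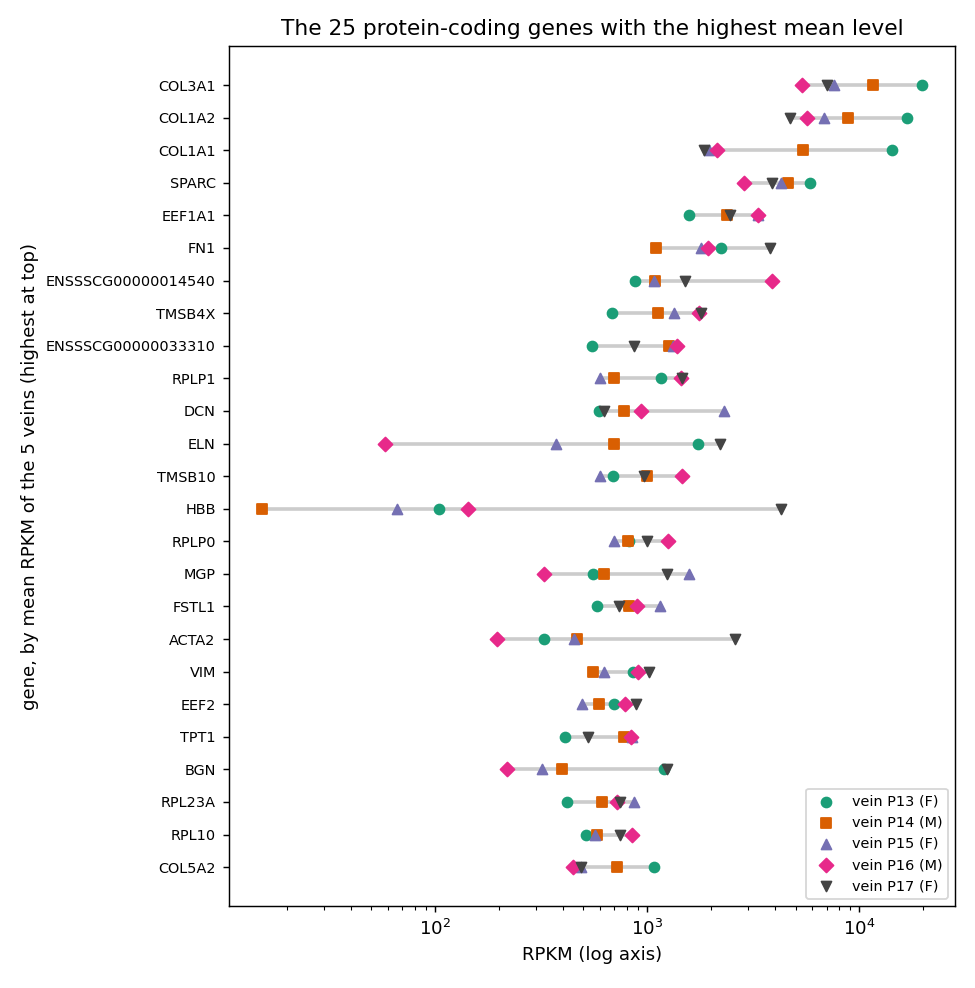
The 25 protein-coding genes with the highest mean RPKM run down the page from the highest, with RPKM on a log axis and 1 marker per vehicle vein. COL3A1, COL1A2 and COL1A1 lead, and HBB, ELN and ACTA2 show the widest gaps between veins.

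After the collagens came the matrix glycoprotein SPARC, which binds collagen, with 5830, 4596, 4253, 2860 and 3861 RPKM in P13 to P17. It too was highest in P13 and second in P14, but with a span of only 2.04-fold between the highest and the lowest vein. FN1, the fibronectin on which cells and collagen are assembled, had 2232, 1102, 1785, 1937 and 3799 RPKM, so it was highest in P17 rather than in P13. The translation factor EEF1A1 had 1577, 2383, 3311, 3342 and 2460 RPKM and was lowest in P13. The proteoglycans DCN (decorin) and BGN (biglycan), which both coat collagen fibrils, took different courses. DCN reached 2295 RPKM in P15 and 595 to 936 in the others, while BGN had 1193 and 1240 RPKM in P13 and P17 and 217 to 396 in the others. MGP, an inhibitor of calcification made in vessel walls, had 554, 626, 1571, 326 and 1245 RPKM.

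ELN, HBB and ACTA2, also among the leading 25, are described below. HBB and ACTA2 had 4248 and 2597 RPKM in P17, against at most 142 and 464 in the other veins. The rest were mostly genes that every cell uses: TMSB4X and TMSB10 (actin-binding thymosins), EEF2, TPT1 and the ribosomal proteins RPLP1, RPLP0, RPL23A and RPL10. Beside them stood VIM (the intermediate filament of mesenchymal cells) and FSTL1 (a secreted glycoprotein). VIM ranged from 554 to 1023 RPKM and RPLP0 from 698 to 1249. A pair of the 25 carries an identifier with no symbol: ENSSSCG00000014540 ran from 879 RPKM in P13 to 3867 in P16, and ENSSSCG00000033310 from 546 in P13 to 1373 in P16. Of the 25, 11 overlap another feature of the table and may share reads with it.

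How concentrated the signal was differed between veins. The 100 genes with the highest mean held 46.5% of protein-coding RPKM in P13, 35.6% in P14, 31.01% in P15, 32.2% in P16 and 34.0% in P17, or 35.9% ± 6.22 (SD, n = 5). P13 stood above the others, which lay close together. Of these 100, 28 encode ribosomal proteins and 9 collagens, 3 belong to the contractile list described below, and 8 have no symbol. When each vein's own leading 100 were taken, 53 genes were shared by all 5 veins and 177 appeared in at least 1. For the leading 25 the numbers were 12 and 46.

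The share held by each gene class differed between veins. All 39 genes with a collagen symbol held 26.7%, 14.8%, 9.04%, 6.89% and 7.21% of protein-coding RPKM in P13 to P17. The 57 ribosomal protein genes ran the other way at the ends, with 5.08% in P13 and 8.73% in P16, and 6.50% to 7.02% in the other 3. In P17 contractile genes held 3.47%, against 0.325% to 0.696% in the other veins, and the globins HBB and HBM 1.87%, against 0.00775% to 0.0648%. Macrophage genes held 1.06% in P16 and 0.261% to 0.352% elsewhere. Since shares sum to a whole, a large class in 1 vein lowers every other share there.

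**Figure D2:**
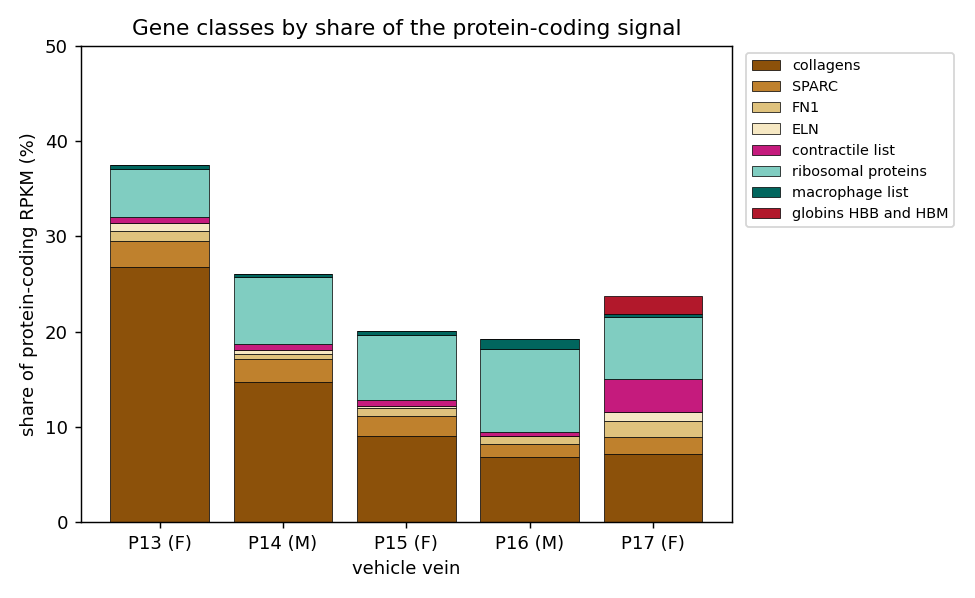
Stacked bars give the share of protein-coding RPKM (%) held by 8 gene classes in each vehicle vein, with the sex of the pig in brackets. Collagens fill 26.7% of P13 and 6.89% of P16, and the contractile and globin layers are wide in P17 only.

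Collagens and elastic fibres were then described chain by chain. Against 15.2% of all genes of at least 1 RPKM, 11 of the 15 collagen genes matched were highest in P13. Those that were not were COL4A1, COL12A1, COL14A1 and COL15A1. COL4A1, a chain of basement membranes, had 286, 226, 74.5, 96.4 and 363 RPKM, highest in P17, and its partner COL4A2 had 166, 81.6, 23.2, 46.7 and 159 RPKM, with P13 and P17 alike. COL15A1, a collagen of basement membrane zones, reached 160 RPKM in P17, against 25.4 to 44.5 in the others. COL12A1, which decorates fibrils, was the most even collagen at 123 to 188 RPKM, and COL14A1 was highest in P15 at 665 RPKM, against 310 to 439. COL11A1, a minor fibrillar chain best known from cartilage, had 53.6, 21.9, 7.61, 8.68 and 0.320 RPKM, a 168-fold span. The level of the collagen list, here and below the mean log2(RPKM + 0.5) of its members, was 8.91, 8.15, 7.31, 7.29 and 7.71, a range of 1.63, or 0.86 without P13.

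Elastin, ELN (chromosome 3, 11214073 to 11244897), is the rubber-like core of elastic fibres. It had 1727, 693, 369, 57.7 and 2211 RPKM in P13 to P17. P13 and P17 were high and P16 was 38.3-fold below the highest vein. The fibrillin FBN1, which forms the scaffold of the same fibres, did not follow it, with 487, 437, 694, 842 and 536 RPKM and its highest value in P16. Among the proteins that join elastin to fibrillin, FBLN5 (32.9, 51.1, 58.9, 18.3 and 127 RPKM), MFAP4 (81.6, 37.5, 25.7, 12.3 and 96.8 RPKM) and LTBP2 (28.4, 14.8, 16.3, 1.66 and 81.3 RPKM) all shared the low of P16 and the high of P17. The cross-linking enzyme LOX instead was highest in P15 at 240 RPKM and P14 at 180 RPKM, against 57.5 to 75.3 in the others. Of the 16 elastic fibre genes, 6 were lowest in P16 and 5 highest in P17, against 10.6% and 25.0% of all genes of at least 1 RPKM. The others were highest in P13 (4), P15 (4) or P16 (3), so many did not share the course of ELN. Over the 16 the list level ranged by 1.27, and by 0.71 without P16.

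Endothelial genes of the intima were present in all veins. All 19 matched genes of 20 lay above 0.5 RPKM in each vein, and the list level was 3.85, 3.39, 3.62, 3.61 and 3.54, a range of 0.46, of 0.24 without P13 and of 0.74 with median-of-ratios scaling. For comparison, the level over all protein-coding genes of at least 1 RPKM ranged by 0.33, with 2.55 in P13 and 2.81 to 2.89 in the others. CDH5, the cadherin of endothelial junctions, had 29.9, 26.4, 30.7, 24.4 and 30.4 RPKM, and the transcription factor ERG had 10.3, 10.7, 11.7, 8.82 and 12.8 RPKM. Both were among the evenest of the list. VWF, the platelet-binding glycoprotein stored in endothelium, was 74.0 RPKM in P13 and 28.0 to 39.2 in the others, and NOS3, the nitric oxide synthase of endothelium, was 13.9 RPKM in P13, 5.99 in P17 and 1.58 to 2.56 in the others. ESAM, a junction molecule, stood apart in P17 at 51.7 RPKM, against 13.1 to 16.7. PECAM1, the highest of the list at 51.7 to 94.1 RPKM, overlaps DDX5, whose reads were 49.4% to 122% of its own, so its level is uncertain.

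Markers of venous and arterial identity were both measured. The venous list ranged by 0.16 in level, or by 0.48 with median-of-ratios scaling, with NR2F2, the nuclear receptor that specifies veins, at 13.7, 16.6, 29.6, 7.11 and 13.9 RPKM and ACKR1, a chemokine-binding receptor of venules, at 20.1, 12.9, 12.3, 37.3 and 15.1 RPKM. NR2F2 and ACKR1 had opposite extremes in P16, where NR2F2 was lowest and ACKR1 highest. EPHB4, the venous ephrin receptor, averaged 9.81 ± 5.59 RPKM and its arterial ligand EFNB2 4.52 ± 1.44 RPKM (SD, n = 5 each). The arterial list had a level of 2.70 to 2.75 in 4 veins and of 2.26 in P16. Its most uneven members were the gap junction gene GJA5, at 61.8 RPKM in P17 and 9.84 to 19.0 in the others, and the Notch target HEY2, at 14.3 RPKM in P17 and 1.09 in P16. The flow-responsive factors KLF2 (5.10 to 8.98 RPKM) and KLF4 (10.7 to 19.4 RPKM) differed by less than 2-fold between veins, and TXNIP, a redox regulator lowered by steady flow, by 3.27-fold (171 RPKM in P13, 361 to 559 in the others).

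Most lymphatic endothelial genes were lowest in P17. CCL21, the chemokine of lymphatic vessels, had 139, 91.7, 56.4, 39.9 and 1.29 RPKM in P13 to P17. PROX1, the transcription factor that specifies lymphatics, had 5.32, 9.29, 8.73, 2.28 and 0.403 RPKM, and FLT4, the receptor for lymphatic growth factors, had 11.8, 8.69, 7.49, 2.54 and 0.872 RPKM. MMRN1 and RELN, also used as lymphatic markers, were lowest in the same vein, with 0.0891 and 0.338 RPKM in P17 against 6.11 to 18.3 and 4.70 to 21.2 RPKM in the others. P17 was lowest for 6 of 7 genes, against 8.46% of all genes of at least 1 RPKM. P16 was the second lowest for PROX1, FLT4, CCL21, MMRN1 and RELN. LYVE1, which macrophages also make, was 23.97 RPKM in P17, within the 18.6 to 51.02 of the other veins, and PDPN, podoplanin, which fibroblasts also make, was 9.19 RPKM there, against 13.3 to 44.1. The list level ranged by 3.32, and by 1.02 without P17.

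Contractile smooth muscle genes of the media showed the reverse order at the same vein. ACTA2, smooth muscle alpha-actin (chromosome 14, 100867733 to 100886713), had 324, 464, 451, 195 and 2597 RPKM in P13 to P17. MYH11, the smooth muscle myosin heavy chain, had 119, 97.2, 117, 51.4 and 852 RPKM, and TAGLN, an actin-binding protein of smooth muscle, had 292, 207, 228, 139 and 1681 RPKM. P17 lay far above the other 4 veins, and P16 lay below them all. Of 19 genes matched, 18 were highest in P17 and 16 were lowest in P16, against 25.0% and 10.6% of all genes of at least 1 RPKM. The exception to the high of P17 was HSPB6, a small heat shock protein, which was highest in P13 (48.8 RPKM, with 36.7 in P17). The myosin light chain MYL9 had 530 RPKM in P17 against 38.3 to 65.0, the calponin CNN1 164 against 7.28 to 22.2, and KCNMB1, the subunit of a smooth muscle potassium channel, 87.8 against 2.03 to 10.7. MYL9, CNN1 and KCNMB1 overlap TGIF2, ELOF1 and KCNIP1, whose reads were up to 58.7%, 77.1% and 124% of theirs. The low values of these genes are therefore uncertain. MYOCD, the coactivator that switches on the contractile programme, had 2.16, 1.47, 1.67, 0.776 and 11.7 RPKM. CALD1, which non-muscle cells also make, spanned only 2.36-fold. The level of the contractile list was 4.62, 4.79, 4.89, 3.75 and 7.06, a range of 3.31, or 1.14 without P17.

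**Figure D3:**
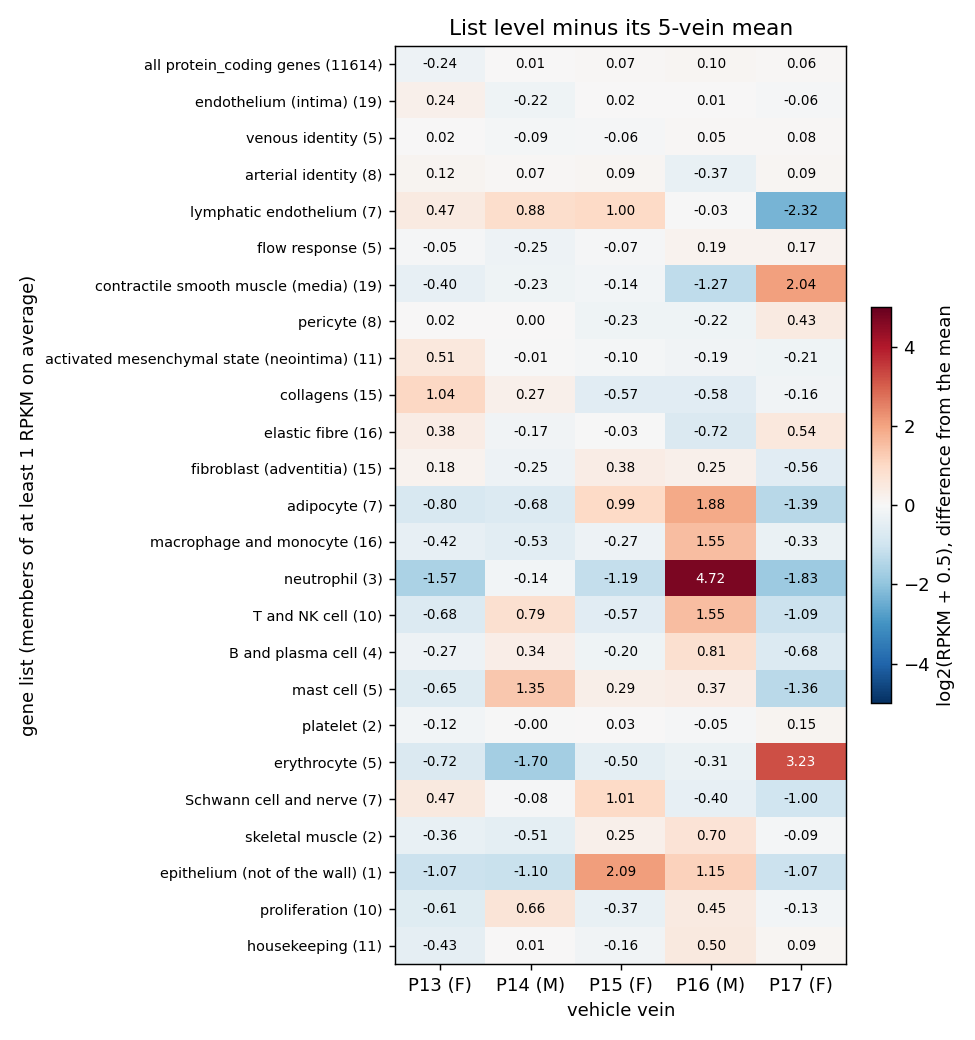
Cell type and wall layer lists run down the page and the 5 vehicle veins across. Colour and number give how far a list's level (mean log2 of RPKM + 0.5) in a vein lay from its mean over the veins; endothelium stays near 0, while contractile and erythrocyte genes are high in P17, neutrophil and macrophage genes in P16 and Schwann cell genes in P15.

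Pericyte genes were less uneven as a list, with a range of 0.66 and of 0.26 without P17, yet its members split. NOTCH3 (49.5, 28.9, 17.8, 14.5 and 93.1 RPKM) and the proteoglycan gene CSPG4 (10.9, 5.39, 2.77, 2.24 and 19.7 RPKM) were highest in P17, as the contractile genes were. RGS5, a regulator of G-protein signalling typical of pericytes, was highest in P14 at 80.5 RPKM and lowest in P13 and P17 at 25.7 and 27.4. The channel genes KCNJ8 and ABCC9 overlap, and the reads of ABCC9 were 91.7% to 101% of those of KCNJ8, so they count as 1 measurement. Over the members that overlap no other feature, CSPG4 and PDGFRB, the range was 2.30. This leaves out NOTCH3, whose overlapping feature had 0 reads in every vein, and RGS5, whose overlapping feature had 0.747% to 2.01% of its reads. The wider range is thus not a correction for shared reads alone.

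Genes of the activated mesenchymal state linked with neointima lay above 0.5 RPKM in every vein for 10 of 11 genes matched. Besides fibronectin, POSTN (periostin) had 128, 278, 73.7, 89.8 and 55.8 RPKM, TNC (tenascin C) 173, 115, 50.2, 81.6 and 47.1 RPKM, and ASPN (asporin) 91.7, 216, 190, 103 and 58.8 RPKM. Periostin and asporin were highest in P14 and tenascin in P13. SPP1, osteopontin, which macrophages also make, was highest in P16 at 151 RPKM, against 16.4 to 50.4. The cartilage matrix genes COMP and CILP were low and uneven, at 0.424 to 8.02 and 1.13 to 26.7 RPKM. For the list, the level was 6.06 in P13 and 5.34 to 5.55 in the others.

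P17 was lowest for 8 of 15 fibroblast genes of the adventitia, against 8.46% of all genes of at least 1 RPKM. Of the 15, 13 lay above 0.5 RPKM in every vein. The other two were DPP4, a surface peptidase, at 0.372 to 7.54 RPKM, and TCF21, a transcription factor, at 0.221 to 2.52 RPKM. PI16, a marker of adventitial fibroblasts, had 141, 86.8, 319, 321 and 76.3 RPKM, and the matrix gene DPT (dermatopontin) had 67.6, 35.0, 193, 82.5 and 20.6 RPKM. Both were lowest in P17. SFRP2, a secreted Wnt modulator, spanned 35.5-fold, with 392, 288, 162, 664 and 18.7 RPKM. GSN, the actin-severing gelsolin, which smooth muscle also makes, went against the list with 1398 RPKM in P17 and 92.6 to 442 in the others. The list level ranged by 0.95.

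Of 7 adipocyte genes of at least 1 RPKM, 5 were highest in P16, 1 in P14 and 1 in P13. The share highest in P16 over all such genes was 18.2%. ADIPOQ, the fat hormone adiponectin, had 0.976, 1.45, 28.0, 67.6 and 0.0261 RPKM in P13 to P17. PLIN1, which coats fat droplets, had 0.282, 0.119, 2.37, 6.00 and 0.261 RPKM, and CIDEC, another droplet protein, 0.830, 0.227, 3.35, 9.92 and 0.719 RPKM. All 3 were highest in P16 and second in P15. GPD1, a glycerol phosphate dehydrogenase, did not follow, with 2.98 RPKM in P13 and 1.34 to 2.74 in the others. FABP4 was highest in P14, at 42.7 RPKM, where ADIPOQ was low; it is made by capillary endothelium and macrophages too. LEP, leptin, stayed at or below 0.618 RPKM. Over the list, the level was 1.13, 1.25, 2.91, 3.80 and 0.54.

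All 16 macrophage genes were highest in P16, as were 7 of 11 housekeeping genes and 18.2% of all genes of at least 1 RPKM. C1QC, a chain of complement C1q made by tissue macrophages, had 296, 122, 229, 690 and 355 RPKM, and C1QA, another of its chains, had 57.3, 34.3, 60.8, 177 and 80.6 RPKM. MRC1, the mannose receptor, had 17.4, 44.7, 52.4, 157 and 13.3 RPKM. The other 4 veins did not keep 1 order among these genes. MARCO, a scavenger receptor of a subset of macrophages, was 8.11 RPKM in P16 and 0.0371 to 0.960 in the others. The list level was 6.28 in P16 and 4.20 to 4.46 in the others, a range of 2.08, or 0.28 without P16. LYZ, at 316 RPKM in P16 and 19.7 to 53.7 elsewhere, overlaps CPSF6, so its level is uncertain.

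Of 6 neutrophil genes matched, the 3 of at least 1 RPKM were high in the same vein as the macrophage genes. Which cells made them was not tested. S100A8, a calcium-binding protein abundant in neutrophils, had 0.360, 1.51, 0.500, 116 and 0.119 RPKM, and its relative S100A12 had 0.129, 1.48, 1.26, 148 and 0.129 RPKM. CSF3R, the receptor for the neutrophil growth factor, had 0.927, 3.33, 0.473, 21.1 and 0.664 RPKM. P16 was highest for all 3, against 18.2% of all genes of at least 1 RPKM. S100A8 and S100A12 reached a mean of 1 RPKM only through P16, so the filter itself favours that vein. The list level ranged by 6.55, and by 3.35 with no filter on low values. The granule genes MPO, ELANE and LTF, made by neutrophil precursors, stayed at or below 0.227 RPKM in every vein.

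T and NK cell genes were, as a list, higher in P14 and P16 than in the other veins. CD3D, a chain of the T cell receptor complex, had 1.07, 11.5, 1.28, 10.1 and 0.166 RPKM, and IL7R, the interleukin receptor of resting T cells, had 2.40, 13.2, 1.37, 21.3 and 0.865 RPKM. NKG7, a granule protein of cytotoxic cells, was highest in P16 at 36.9 RPKM and 5.31 to 12.9 in the others. Levels of the list were 1.30, 2.77, 1.41, 3.53 and 0.89. CD3G carried nearly the same reads as the overlapping UBE4A (99.6% to 100%) and says nothing about T cells here. The list levels above still average it.

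The level of the B and plasma cell list was 2.56, 3.17, 2.62, 3.63 and 2.14, highest in P16 and second in P14. It rests on 4 genes of at least 1 RPKM, of which 3 were highest in P16, against 18.2% of all such genes. The B cell gene MS4A1, too low to enter that level, had 0.0515, 2.51, 0.0751, 0.872 and 0.0205 RPKM, highest in P14. CD79A, 1 of the 4, had 27.1 to 37.8 RPKM. It spans a feature with no symbol whose reads were 248% to 331% of its own, so its level is uncertain. Mast cell genes were highest in P14, where FCER1A, a chain of the IgE receptor, was 21.8 RPKM against 0.353 to 6.40, and MS4A2, its partner chain, had 7.74, 31.8, 27.8, 23.7 and 2.60 RPKM. KIT went another way, with its highest value, 53.4 RPKM, in P17. The levels of the B and plasma cell list and the mast cell list ranged by 1.49 and 2.71, and that of the mast cell list by 1.72 without P14.

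Of 7 Schwann cell and nerve genes of at least 1 RPKM, 4 were highest in P15 and 3 in P13, and P17 was lowest for 5. Of all protein-coding genes of at least 1 RPKM, 35.9% were highest in P15, 15.2% highest in P13 and 8.46% lowest in P17. MBP, a myelin protein (chromosome 1, 147568673 to 147685288), had 1.24, 4.95, 11.5, 9.26 and 1.57 RPKM. CDH19, a cadherin of the lineage, had 1.19, 1.51, 5.81, 0.334 and 0.186 RPKM. Both were highest in P15, and PRX, periaxin of the myelin sheath, was too, at 4.43 RPKM. SOX10, the transcription factor of the lineage, did not follow: it had 2.37, 0.437, 1.08, 0.147 and 0.0542 RPKM, highest in P13, and it overlaps other genes. The list level was 2.48 in P15, against 0.47 to 1.94 in the others, a range of 2.01.

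Red cell genes marked P17. HBB, beta-globin, had 104, 15.2, 66.2, 142 and 4248 RPKM. ALAS2, the haem synthesis enzyme of red cell precursors, had 1.82, 0.357, 2.01, 3.34 and 132 RPKM, and AHSP, which stabilises alpha-globin, had 0.135, 0.0551, 0.876, 0.712 and 15.3 RPKM. All 3 were highest in P17, and P14 was lowest for each. ALAS2 overlaps APEX2, whose reads were 3.77% to 1132% of its own, so its low values are uncertain. GYPC, which other cells also make, stayed at 2.31 to 3.98 RPKM. The list level was 5.64 in P17 and 0.71 to 2.10 in the others, a range of 4.93, or 1.73 without P17. AHSP entered that level only through P17, and so did HBM, with 7.65 RPKM there and at most 0.270 elsewhere.

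Tissues that do not belong to the wall left little trace. Of 9 skeletal muscle genes matched, 6 stayed at or below 0.5 RPKM in every vein, and ACTA1, skeletal alpha-actin, reached at most 0.311 RPKM. The muscle carbonic anhydrase CA3, which fat also makes, had 0.866, 0.438, 4.32, 7.91 and 0.00701 RPKM, the order of ADIPOQ at its high end. The epithelial gene EPCAM reached at most 0.263 RPKM, and the keratin KRT8 was 4.16 RPKM in P15 and 1.92 in P16, with at most 0.0190 in the others. Of the platelet list, ITGA2B was even at 6.87 to 11.1 RPKM, while GP1BB stayed at or below 0.105 RPKM.

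Proliferation genes were low, with the highest list levels in P14 and P16. TOP2A, a topoisomerase of dividing cells, had 2.68, 12.3, 4.53, 10.9 and 3.58 RPKM, and CENPE, a mitotic kinesin, had 0.656, 3.56, 1.37, 2.97 and 1.10 RPKM. P13 was lowest for 7 of 10 genes of at least 1 RPKM, against 45.3% of all such protein-coding genes. The levels were 1.13, 2.40, 1.37, 2.18 and 1.60. P14 and P16 are also the male veins and the ones with the highest T and NK cell level.

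**Figure D4:**
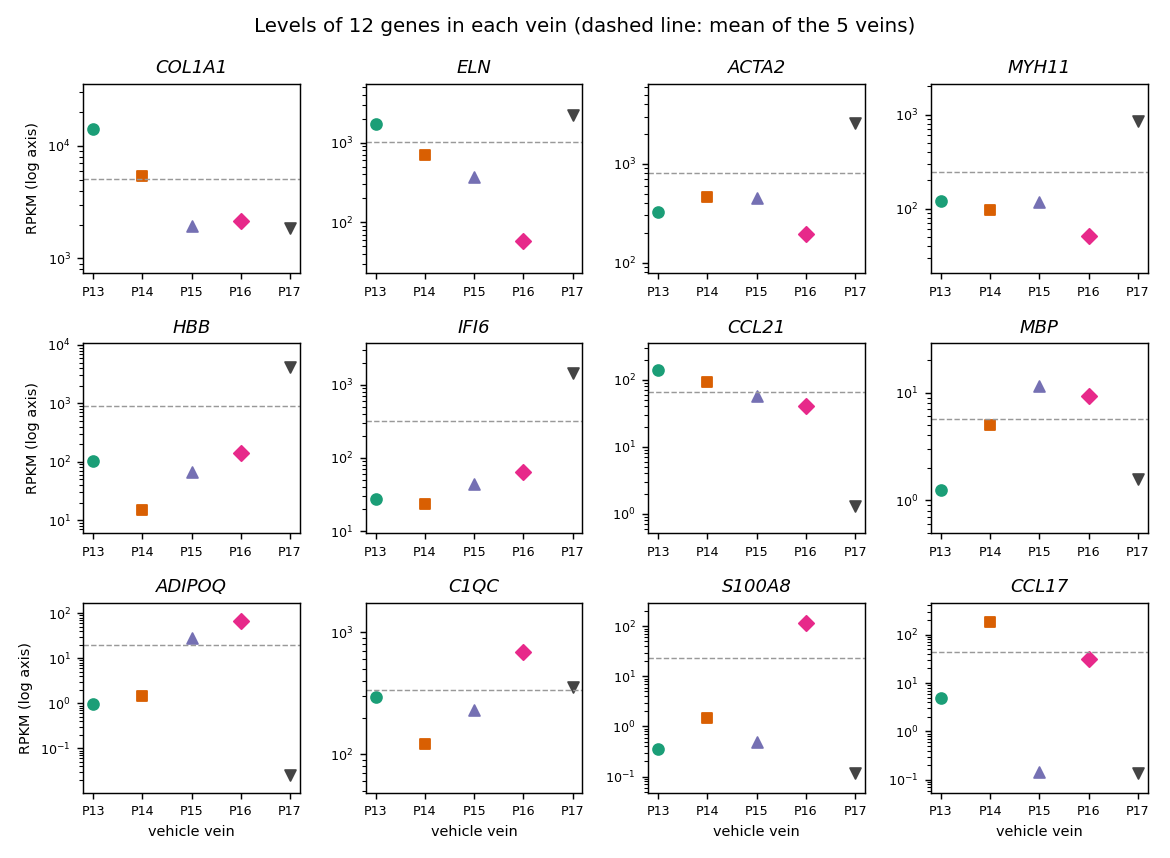
Each panel gives 1 gene's RPKM (log axis) in each vehicle vein, with the mean of the 5 veins as a dashed line. COL1A1 is highest in P13, CCL17 in P14, MBP in P15, C1QC, S100A8 and ADIPOQ in P16, and ACTA2, MYH11, ELN, HBB and IFI6 in P17, where CCL21 is lowest.

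Spread among the veins was next ranked over all genes. As SD of log2(RPKM + 0.5), it had a median of 0.53 over the 11614 protein-coding genes of at least 1 RPKM (quartiles 0.38 and 0.71), and 874 genes (7.53%) had an SD above 1. The ranking below takes genes with a symbol and a mean of at least 5 RPKM. The 20 most variable had SDs of 2.22 to 3.56: 9 were highest in P16, 4 in P17, 4 in P14, 2 in P13 and 1 in P15. Between 13 and 17 of these 20 stayed among the 20 when 1 vein was left out.

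CCL17 led, at an SD of 3.56. It and CCL22 are chemokines that share the receptor CCR4, and CD1E is a lipid-handling molecule of dendritic cells. CCL17 (chromosome 6, 19345941 to 19348926) had 4.84, 179, 0.142, 31.1 and 0.136 RPKM, CCL22 had 5.37, 72.2, 0.0405, 21.6 and 0.0387 RPKM, and CD1E had 0.941, 41.1, 0.110, 6.20 and 0.0312 RPKM. All 3 had the same order, with P14 first, P16 second and P13 next. CD1E overlaps a feature with no symbol whose reads were 36.7% to 1988% of its own, so its level is uncertain. COL6A5, a chain of collagen VI, was also highest in P14, at 36.6 RPKM against 0.176 to 16.1.

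In P16, beside S100A8, S100A12 and ADIPOQ, the variable genes were IDO1, a tryptophan-degrading enzyme, with 0.119, 1.69, 0.545, 58.6 and 0 RPKM, and UBD, a ubiquitin-like modifier, with 1.47, 23.1, 6.81, 143 and 2.96 RPKM. PLA2G2D, a secreted phospholipase, and ARG1, arginase, were 46.7 and 25.4 RPKM there, against at most 3.57 and 1.42 in the others. DGAT2, an enzyme of triglyceride synthesis, had 1.06, 0.0749, 3.59, 23.9 and 0.177 RPKM, with P15 second to P16 as for ADIPOQ. CXCL10, a chemokine induced by interferon, was 29.1 RPKM in P16 and 26.5 in P17, against 0.154 to 5.77.

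P17 held the interferon-induced genes IFI6, with 27.2, 23.8, 44.4, 63.3 and 1459 RPKM, and ISG15, with 5.82, 1.67, 2.25, 9.04 and 156 RPKM. In both, P17 lay far above every other vein. APOD, an apolipoprotein made by fibroblasts and Schwann cells among others, was 128 RPKM in P15 and 1.52 to 16.6 in the others, but it overlaps features without a symbol and is uncertain.

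**Figure D5:**
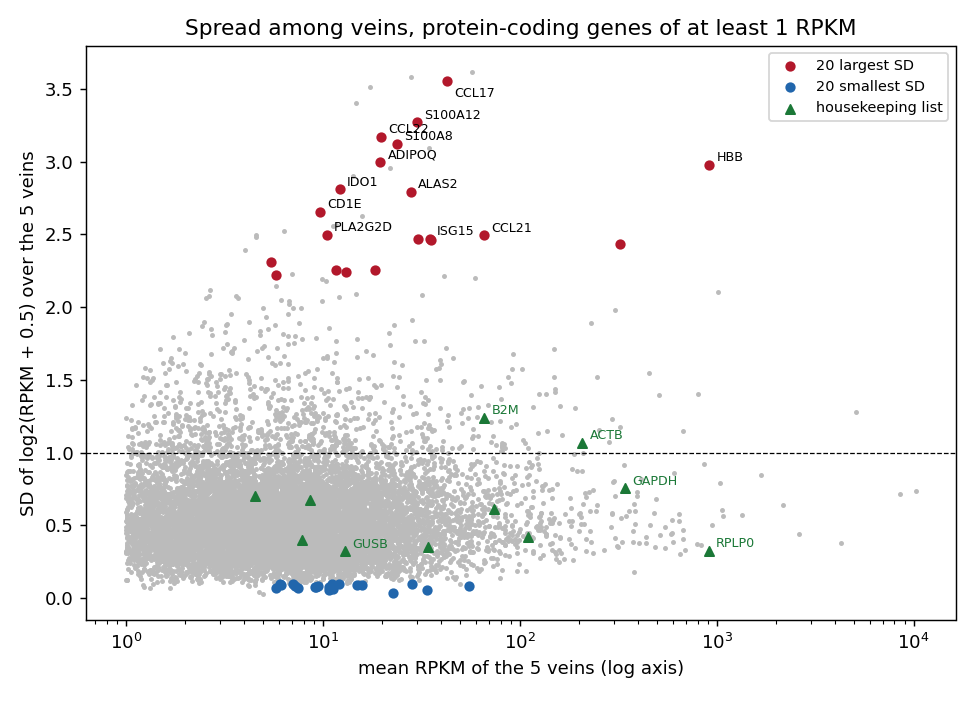
Each dot is a protein-coding gene, with its mean RPKM over the 5 vehicle veins (log axis) against its SD of log2(RPKM + 0.5). Among genes with a symbol and a mean of at least 5 RPKM, red dots are the 20 largest SDs (2.22 to 3.56) and blue dots the 20 smallest (0.035 to 0.099), with green triangles for the housekeeping list; the dashed line marks an SD of 1.

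At the other end, the 20 least variable genes had SDs of 0.035 to 0.099. KDM5B, a histone demethylase (chromosome 10, 24736834 to 24831447), had 22.1, 23.2, 22.2, 22.6 and 23.3 RPKM, an SD of 0.035 beside 0.016 from counting alone. KLF6, a zinc finger factor, had 33.9, 33.5, 33.5, 31.8 and 35.7 RPKM, and SELENOF, a selenoprotein of the endoplasmic reticulum, 51.4, 57.4, 57.6, 58.4 and 53.1 RPKM. None of the 3 separated any vein from the rest. The others included the ubiquitin ligases RNF216, RNF187 and PJA1, THAP11 (a transcription factor), PRKDC (the DNA-dependent protein kinase), FTO (an RNA demethylase), EXOC2 (a subunit of the exocyst), GOSR2 (a Golgi SNARE), SART3 (a splicing factor) and EPRS1 (a tRNA synthetase). The rest were GNL1, SAE1, CDK5RAP2, MPHOSPH8, ACAD10, CCDC62 and COX6A2, the muscle form of a cytochrome oxidase subunit, at 7.19 to 8.21 RPKM. Which genes are the evenest depended on the scaling: 1 of the 20 stayed among the 20 after median-of-ratios scaling, and 5 to 12 stayed when 1 vein was left out.

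Genes in common use as references did not rank among them. GUSB had the smallest SD of the 11 housekeeping genes listed, 0.32 (10.1 to 17.8 RPKM), and 16.7% of genes of at least 1 RPKM were evener. RPLP0 had an SD of 0.32. GAPDH had 361, 212, 158, 578 and 411 RPKM, an SD of 0.75, and ACTB, cytoplasmic actin, 292, 167, 52.4, 176 and 353 RPKM, an SD of 1.07. ACTB was lowest in P15 and highest in P17. B2M, the light chain of class I antigen-presenting molecules, had 11.8, 60.7, 71.3, 117 and 69.2 RPKM, an SD of 1.24, above that of 96.5% of genes. GUSB and B2M overlap other features of the table, which makes their levels uncertain.

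Sex is the only label that splits the 5 veins, so it was tested over all 15018 genes above 0.5 RPKM in at least 2 veins, with males P14 and P16 against females P13, P15 and P17 (limma on log2(RPKM + 0.5), Benjamini-Hochberg adjustment at 0.05). It called 33 genes, or 0.220% of those tested, of which 30 were higher in males (0.200%) and 3 lower, and 918 had an unadjusted p under 0.05. KDM5D, a histone demethylase on the Y chromosome, had 12.3 and 10.6 RPKM in males, against 0.00402, 0.00419 and 0.00400 RPKM in females (log2 difference 4.56, SE 0.43, limma adjusted p = 0.000601). EIF1AY, a translation factor on the Y, had 7.65 and 5.09 RPKM in males and was listed at 0 in all 3 females. Only these 2 of the 7 Y-linked genes on the list were matched, and both fitted the sex in each column name. Of the 10 smallest p-values, 7 were on the Y, 2 on the X and 1 on chromosome 3. The X pair was of long noncoding RNAs lower in males: ENSSSCG00000049776 had 0.265 and 0.0760 RPKM in males, against 92.0, 267 and 109 RPKM in females (log2 difference -7.72, SE 0.56, limma adjusted p = 7.69e-05).

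Of the 33 genes, 24 were not on the Y. A pair of these was singled out after its values were seen. ICOS, a costimulator of T cells, had 8.05 and 4.99 RPKM in males, against 0.280, 0.260 and 0.0301 RPKM in females (log2 difference 3.33, SE 0.45, limma adjusted p = 0.0114). CLEC7A, a receptor for fungal glucans on myeloid cells, had 5.12 and 10.2 RPKM in males, against 0.224, 0.375 and 0.167 RPKM in females (log2 difference 3.37, SE 0.47, limma adjusted p = 0.0135). Males and females did not overlap for either, but both were picked from genes that passed the test, so this adds nothing to it. Of the T and NK cell list, 4 of 11 tested genes passed (IL7R, CD3D, CD5 and CD3E), all higher in males, with a median log2 difference of 2.17 beside 0.062 over all genes. Of 19 contractile, 19 endothelial, 15 collagen and 16 macrophage genes tested, 0 passed (limma; 2, 1, 0 and 3 at an unadjusted p under 0.05), with medians of -1.29, -0.24, -0.17 and 0.83. Those medians carry the single high veins named above. The male veins had 30261776 and 42145692 reads, against 47552366 to 49818479 in the females, and protein-coding shares of RPKM of 22.9% and 27.5%, against 36.1% to 42.9%. With 2 males and 3 females, sex, depth and lymphocyte level cannot be told apart. The count was 13 without P13, 84 without P14, 218 without P15, 18 without P17 and 0 with no filter on low values (limma, 1449 at an unadjusted p under 0.05).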

How the data were processed

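Total RNA of outflow veins was sequenced; per the labels' protocols, 0.5 µg entered a TruSeq V2 library. The authors deposited a table of RPKM per gene and library. The unit was inferred: value × (length + 1) × library total gave whole reads for 100% of values within 0.001 reads, and the recovered reads summed to that total in each vehicle column. Aligner, counter, pig build and strand setting: not given in the sources used here. The submitters' processing notes name mm10, which contradicts the pig identifiers. Of other deposited columns, gene length served to recover reads. Columns carry no replicate number and were assigned to the group only; that each is a separate animal rests on the animal codes. A symbol was taken from the reference table for 785 of 14012 rows that lack one.

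Python 3.11.15 and R 4.3.3 with limma 3.58.1 (trend) were used. Differences are on the log2(RPKM + 0.5) scale, which understates those of low genes. List levels average members of at least 1 RPKM. Named genes are the 25 with the highest mean, the 20 largest and 20 smallest SDs at a mean of at least 5 RPKM, up to 6 per list with markers near 0, up to 10 of the sex test and the Y-linked list; others are named as examples. Some genes are not reported here; they were left out of the lists and the SD ranking. The members and lists were chosen with earlier results of these data known. The sex test was checked on simulated data (15018 genes, 50 changed per size). Values were drawn independently for each gene from a normal distribution with its mean and its SD within sex. Calls were 0 for 2-fold, 2 for 4-fold, 21 for 8-fold and 23 for 16-fold changes, 0 of them false. Genes that move together and single far veins were not simulated, so the false calls in the real veins cannot be read from this.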

Additional observations from a re-analysis of the deposited data

Results flagged for a closer look

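Some values lay far from those of the other 4 veins, with the gap to the nearest vein above 0.71 of the whole range; chance alone gives about 1 such case in 20. Among 173 named genes of at least 1 RPKM there were 10. Among all 11614 protein-coding genes of at least 1 RPKM there were 436 (3.75%), which is not above that rate. Some of the named genes were picked for a large SD in these same values. AHSP, HBM, S100A8 and S100A12 reached a mean of 1 RPKM only through their far vein. The gap was measured on log2 levels. In P17, IFI6 had 1459 RPKM against 23.8 to 63.3 in the others, TPM2 607 against 62.3 to 103, MYL9 530 against 38.3 to 65.0, ESAM 51.7 against 13.1 to 16.7, AHSP 15.3 against 0.0551 to 0.876 and HBM 7.65 against 0 to 0.270, though HBM overlaps NPRL3. MYL9 overlaps TGIF2, so its low values are uncertain. CCL21 was low in P17, at 1.29 RPKM against 39.9 to 139. In P16, S100A12 had 148 RPKM against 0.129 to 1.48 and S100A8 116 against 0.119 to 1.51. In P13, B2M was low, at 11.8 RPKM against 60.7 to 117.

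Of 25 list levels, 6 stood apart in the same way. Erythrocyte genes had a level of 5.64 in P17 against 0.71 to 2.10. AHSP and HBM entered that level only because P17 lifted their mean to 1 RPKM, as P16 did for S100A8 and S100A12. The neutrophil and erythrocyte levels thus stand apart in part through the filter. In P16 macrophage genes had 6.28 against 4.20 to 4.46, neutrophil genes 6.17 against -0.38 to 1.31, and arterial genes were low, at 2.26 against 2.70 to 2.75. In P13 activated mesenchymal genes had 6.06 against 5.34 to 5.55, and all protein-coding genes together were low, at 2.55 against 2.81 to 2.89. Genes far above the other veins numbered 103 in P17, 60 in P16, 51 in P15, 25 in P13 and 1 in P14, and genes far below them 123 in P13 and 5 to 44 in the others.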

How the results depend on the processing

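The share of the leading 100 genes, 35.9%, was 12.4% of the RPKM of all genes, 32.4% of recovered reads and 33.3% to 37.2% with 1 vein left out. Genes above 0.5 RPKM in every vein numbered 11127, and 9791 to 12937 at thresholds of 1 and 0.1. The 874 genes with an SD above 1 became 1333 with a pseudocount of 0.1, 599 with 1, and 770 to 1144 with 1 vein left out. The 33 genes of the sex test became 17 with a pseudocount of 0.1, 15 with median-of-ratios scaling, 0 of 25521 with no filter (limma, 1449 at an unadjusted p under 0.05, KDM5D at adjusted p = 0.111) and 13 to 218 with 1 vein left out, where a lone male is assumed to vary like the females. No paired analysis was possible because the columns carry no replicate numbers. Of 120 list ranges under other settings, 105 moved by less than the SD between veins, and 16 of 24 lists kept the same highest vein in all of them. The exceptions with median-of-ratios scaling were endothelium 0.74, venous 0.48, arterial 0.80 and activated mesenchymal 1.04. Without genes that overlap any feature, whatever its reads, they were endothelium 0.64, venous 0.24, pericyte 2.30, fibroblast 1.36, platelet 0.66 and erythrocyte 2.64. That choice was made after seeing the data. With no filter the exceptions were neutrophil 3.35, platelet 0.51, skeletal muscle 0.31 and epithelium 1.59. Epithelium was 5.30 with a pseudocount of 0.1. The cause of these moves was not tested. With 1 vein left out the ranges ran from 0.24 to 0.46 for endothelium, 0.050 to 0.49 for arterial, 1.02 to 3.32 for lymphatic, 1.14 to 3.31 for contractile, 0.26 to 0.66 for pericyte, 0.20 to 0.72 for activated mesenchymal, 0.86 to 1.63 for collagen and 0.71 to 1.27 for elastic fibre genes. They ran from 0.28 to 2.08 for macrophage, 1.98 to 6.55 for neutrophil, 0.14 to 0.27 for platelet, 1.73 to 4.93 for erythrocyte, 0.76 to 3.16 for skeletal muscle and 0.52 to 0.93 for housekeeping genes.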

Other observations

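ARHGEF39, a protein-coding gene ranked 27 by mean level and singled out after its values were seen, had 372, 1097, 393, 900 and 280 RPKM in P13 to P17. The RNase MRP RNA gene lies within its span, and its reads were 99.7% to 99.9% of those counted for ARHGEF39, so this level is that of the short noncoding RNA.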
